A study of Mus musculus with 4 samples.

Results

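The interleukin-1 family was followed across the cell classes of mouse mammary tumors through 8 genes, chosen by symbol from the 32285 genes counted. They were the cytokines Il1a, Il1b, Il18 and Il33, the receptor antagonist Il1rn, the decoy receptor Il1r2, and the receptors Il1r1 and Il1rl1. All 8 were present in the count matrices of all 4 libraries.

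Single-cell RNA sequencing counted RNA molecules by their unique molecular identifiers (UMIs) in tumors of 4 mice, with 1 library per mouse. Replicates 1 and 3 were MMTV-Cre-; Frmd8 fl/fl; PyMT mice (Cre-) and replicates 2 and 4 were MMTV-Cre+; Frmd8 fl/fl; PyMT mice (Cre+), littermates taken at 17 to 18 weeks. In both groups PyMT, the polyoma middle T antigen, was expressed from the MMTV promoter and gave rise to the tumors, and both copies of Frmd8 carried loxP sites around exons 4 to 6. The floxed and PyMT lines were on a C57BL/6 background, and in Cre+ mice the MMTV promoter drives Cre mainly in luminal mammary epithelium, so that the myeloid and stromal cells described here were not the intended site of the deletion. The cells had been sorted by flow cytometry with a gate that is not given in the sources used here. The study asked how loss of Frmd8 changes the tumors.

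After barcodes under 1000 UMIs or over 20% mitochondrial UMIs were removed, 4922 to 7123 cells per library remained, with a median of 12455 to 13072.5 UMIs. Pairs of libraries shared 6 to 16 barcodes, 0.122% to 0.325% of the smaller library. Cre+ replicate 4 stood apart in its processing, since its files hold empty droplets as well as cells and come from another Cell Ranger version. Cells were assigned to classes by UMIs of fixed marker lists. Each list was detected in its own class in every library that held at least 20 such cells, which the gates largely fix in advance. In macrophages the 7 markers summed to 15190 to 17087 CPM (UMIs of a gene per 1000000 UMIs of the class). The 6 fibroblast markers summed to 41203 to 48091 CPM in fibroblasts and to 24.8 to 91.9 CPM in macrophages. Cells that passed the gates of more than 1 lineage were left out, so this separation also follows from the rule and is no check of it. Within a lineage the classes were less apart. Fibroblast markers summed to 5928 to 13509 CPM in pericytes, and NK markers to 676 to 3814 CPM in regulatory T cells. Epithelial cells held Frmd8 at 24.3 and 24.2 CPM in the Cre- libraries (1 and 3) and at 5.45 and 10.3 CPM in the Cre+ libraries (2 and 4). It was also lower in both Cre+ libraries outside the epithelium, with 25.3 and 24.4 against 19.9 and 13.97 CPM in myeloid cells and 23.1 and 23.3 against 17.2 and 20.04 CPM in stromal cells. These are counts of 3′ tags over the whole gene, whose place relative to the floxed exons was not mapped. They do not measure the deletion itself. Wherever 4 values follow one another below, they belong first to the Cre- libraries (1, then 3) and then to the Cre+ libraries (2, then 4).

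Interleukin-1 alpha and beta are agonists of 1 receptor, IL1R1, which signals through MYD88 and IRAK kinases to NF-kB. The antagonist IL1RN occupies IL1R1 without signalling, and IL1R2 binds the same cytokines but lacks a signalling domain. IL-1 beta and IL-18 are made as precursors that caspase-1 cleaves within inflammasomes, whereas IL-33 is a nuclear protein released from damaged cells that acts on ST2, the product of Il1rl1, found on mast cells and regulatory T cells. In mammary tumors IL-1 is best known as a product of tumor-associated myeloid cells, and the proteins were not measured here.

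RefSeq promoters on GRCm38.p6, from 250 bases before to 50 after each start, were matched by symbol for all 8 genes and gave 13 promoters. The 3 below are shown because they belong to genes whose levels are led by different classes, Il1b and Il1r2 by neutrophils and Il33 by fibroblasts, as described in the results that follow. Capitals mark matches on either strand to the TATA box (TATAAA), the C/EBP core (TTNNGNAA) and the PU.1 core (GAGGAA).

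Il1b, chr2:129371090-129371389, minus strand: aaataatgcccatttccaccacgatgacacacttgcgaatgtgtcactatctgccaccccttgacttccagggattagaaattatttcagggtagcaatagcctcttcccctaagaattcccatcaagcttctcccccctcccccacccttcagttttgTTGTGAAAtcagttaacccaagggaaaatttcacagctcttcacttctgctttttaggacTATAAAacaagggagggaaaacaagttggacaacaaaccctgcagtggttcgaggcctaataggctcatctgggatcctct
Il1r2, chr1:40085843-40086142, plus strand: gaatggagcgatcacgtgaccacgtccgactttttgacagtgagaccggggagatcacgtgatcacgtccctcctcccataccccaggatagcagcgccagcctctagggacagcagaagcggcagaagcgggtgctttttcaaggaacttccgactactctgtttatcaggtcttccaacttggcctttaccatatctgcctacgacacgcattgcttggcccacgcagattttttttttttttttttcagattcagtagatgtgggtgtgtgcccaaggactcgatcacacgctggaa
Il33, chr19:29924863-29925162, plus strand: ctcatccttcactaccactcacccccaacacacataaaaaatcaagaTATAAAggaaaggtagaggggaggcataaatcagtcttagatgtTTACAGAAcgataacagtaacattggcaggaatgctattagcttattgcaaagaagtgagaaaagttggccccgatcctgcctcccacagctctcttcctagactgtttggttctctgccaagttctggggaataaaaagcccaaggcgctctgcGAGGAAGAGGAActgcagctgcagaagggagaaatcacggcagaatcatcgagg

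The Il1b window held 1 TATA box and 1 C/EBP core, the Il33 window held 1 TATA box, 1 C/EBP core and 2 PU.1 cores, which follow each other directly, and the Il1r2 window held none of these letters. Of 32851 mouse promoters of the same length, 13.6% held TATAAA, 40.7% TTNNGNAA and 28.3% GAGGAA. Of the 13 promoters of the 8 genes, 6 held TATAAA, 10 held TTNNGNAA and 3 held GAGGAA. An AP-1 motif (TGANTCA) and an NF-kB motif (GGG and CC with 5 bases of any kind between them) were searched in the same way. The first was in 2 of the 13 promoters, those of Il1a and Il1rn, against 7.81% of all promoters, and the second in 4 of the 13, of Il1r1 and Il1rn, against 50.8%. Promoters of 1 gene can overlap, so the 13 are not independent. These are matches of letters in short windows, and short motifs can overlap one another.

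The broad order of the family was a division between myeloid and stromal cells. Il1a, Il1b, Il1rn and Il18 were higher in myeloid cells (macrophages, monocytes, neutrophils and dendritic cells) than in epithelial and in stromal cells (fibroblasts, endothelial cells and pericytes), while Il33 and Il1r1 were highest in stromal cells. In a fit of UMIs summed per library and class, with the mouse as a block, all 8 genes differed between myeloid and epithelial cells, 6 of them higher in myeloid cells (edgeR quasi-likelihood test, Benjamini-Hochberg adjusted p under 0.05), when 65.9% of all genes tested did so. Between stromal and epithelial cells 5 of the 8 differed, all higher in stromal cells, against 62.5% of all genes. Between myeloid and stromal cells 7 differed, against 66.1% of all genes. Most genes tested were called in each of these comparisons, and the members' counts are to be read against that. The median log2 difference of the 8 genes between myeloid and epithelial cells was 5.80, beside -0.12 for all genes. With 1 library per mouse and the mouse as a block, these p-values rest on how class differences varied from mouse to mouse.

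**Figure D1:**
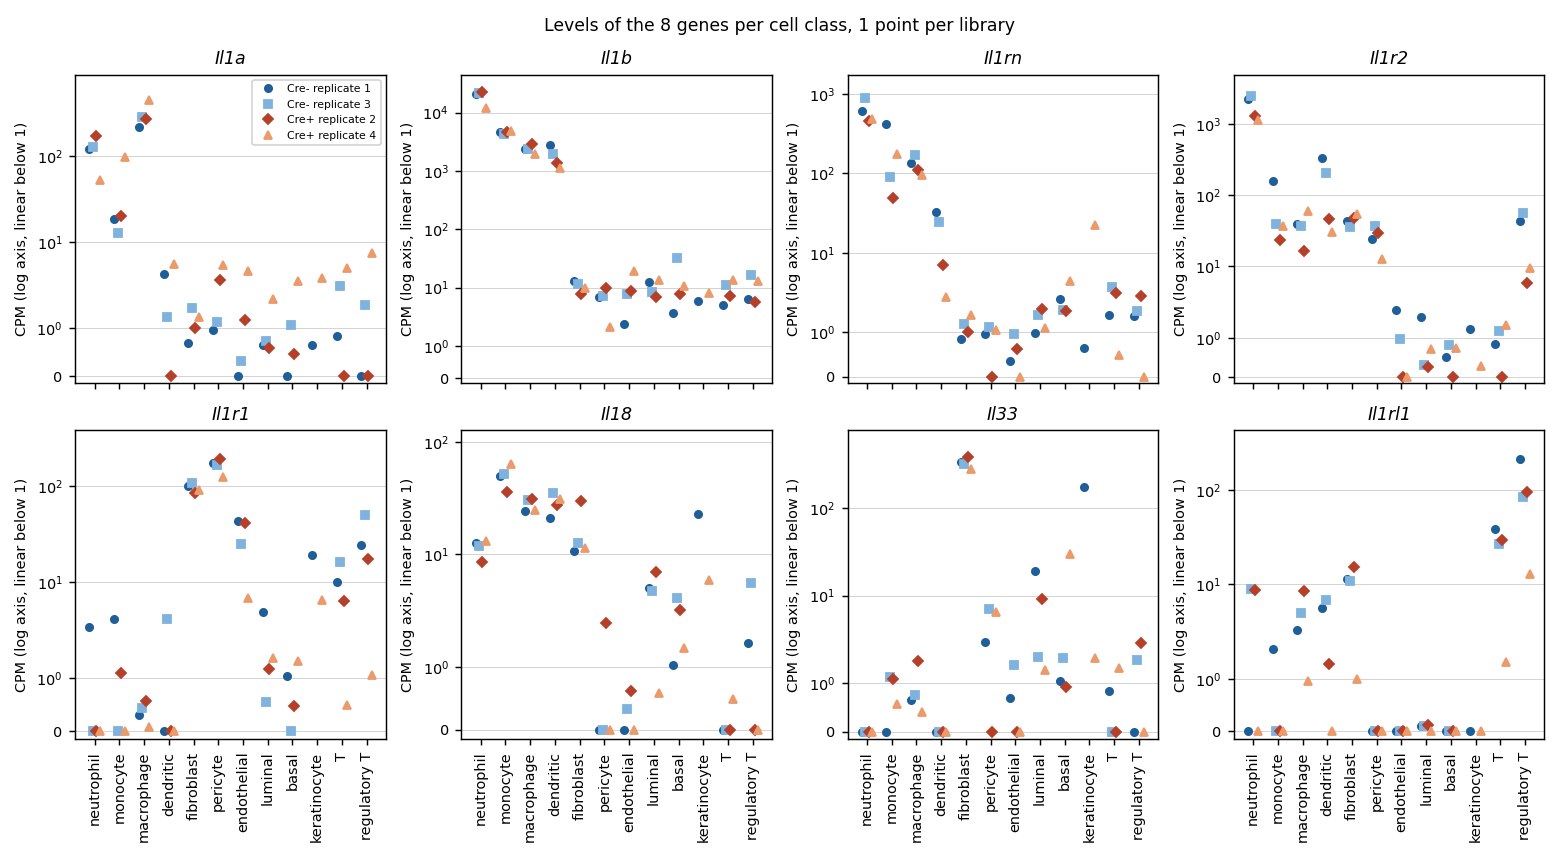
Level of each gene in CPM (log axis, linear below 1) per cell class, with 1 point per library and only classes of at least 20 cells in that library. Il1b is highest in neutrophils of all 4 libraries, Il33 in fibroblasts and Il1r1 in pericytes, and keratinocyte-like cells are shown for the 2 libraries that had them.

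Il1b, the main secreted agonist of the family, had the most 3′ UMIs of the 8 genes. In neutrophils it reached 21053 and 21882 CPM in Cre- replicates 1 and 3, and 22506 and 12106 CPM in Cre+ replicates 2 and 4, which is 1.21% to 2.25% of all UMIs of these cells. Cre+ replicate 4 was the low library, while the other Cre+ library was the highest of all. Monocytes held 4573, 4357, 4724 and 4843 CPM per library, a narrow range below that of neutrophils. Macrophages held 2390, 2413, 2916 and 1982 CPM, all below monocytes, and dendritic cells 2794, 1925, 1386 and 1132 CPM, whose range overlaps that of macrophages. Il1b was higher in neutrophils than in macrophages by 2.91 ± 0.43 (log2, SE, adjusted p = 4.7e-07, edgeR). This is a difference per UMI of the class and not per cell. Neutrophils held a median of 3529, 3620 and 3849 UMIs per cell in Cre- replicates 1 and 3 and Cre+ replicate 2. Macrophages held 10892, 16909 and 12939 in the same libraries. In monocytes the difference from macrophages was 0.90 ± 0.41 and did not pass the threshold (adjusted p = 0.12, edgeR). Of the classes outside the myeloid lineage, each had a mean level of at most 52.8 CPM, that of NK cells. In luminal cells, the epithelial majority, Il1b was at 12.4, 8.59, 6.92 and 13.6 CPM. The 10% of luminal cells with the most Il1b held 73.4% to 89.6% of those UMIs. In the same luminal cells the 7 macrophage markers summed to 26.0 to 54.7 CPM and the 7 neutrophil markers to 56.4 to 370 CPM, and the droplets with up to 100 UMIs of Cre+ replicate 4, which hold free RNA, had Il1b at 953 CPM. The part of other cells and of free RNA in the luminal Il1b level was not tested.

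Most neutrophils carried Il1b, but fewer than 1 in 2 macrophages did at equal depth. When every cell was thinned to 1000 UMIs, 99.6%, 96.3%, 100% and 90.5% of neutrophils kept at least 1 Il1b UMI. The share was 69.4% to 75.3% in monocytes and 44.5% to 46.1% in macrophages, a range of under 2 percentage points across the mice. Without thinning, the macrophage share was 63.4% on average. In luminal cells, which should lack most of these transcripts, it was 0.795% to 3.33% after thinning, and the median depth before thinning was 22715 and 22726.5 UMIs in the epithelial cells of the Cre- libraries and 13920 and 12497 UMIs in those of the Cre+ libraries, against 8356 to 15565 UMIs in myeloid cells. In counts that were not thinned, macrophage Il1b was also unevenly spread. The 10% of macrophages with the most Il1b held 50.0% to 56.0% of it, whereas the top 10% of neutrophils held 20.2% to 30.6%. Depth differs between cells in these shares, and its part was not tested.

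**Figure D2:**
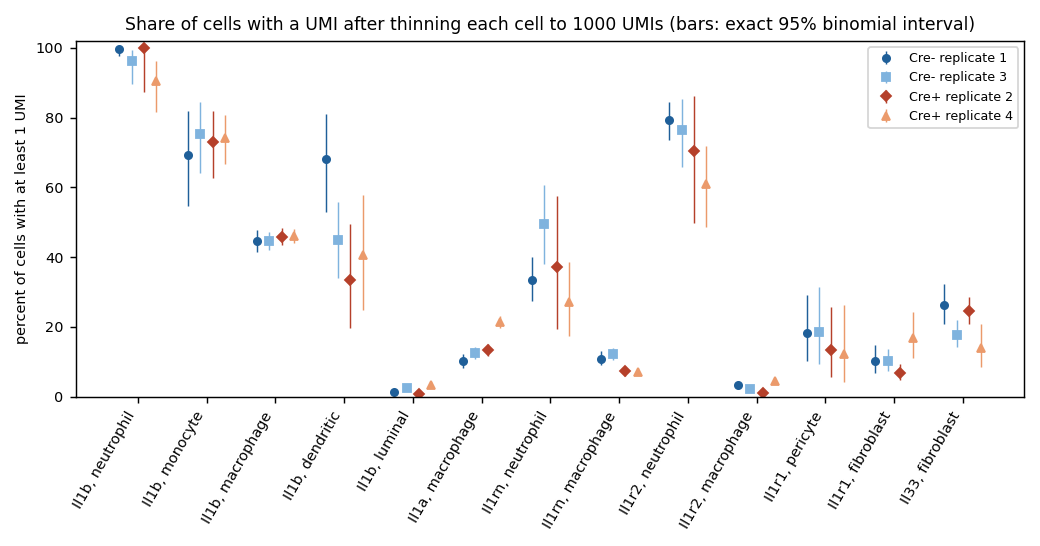
Percent of cells with at least 1 UMI of a gene in a class after each cell was thinned to 1000 UMIs, 1 point per library with its exact 95% binomial interval. Il1b is found in 90.5% to 100% of neutrophils, 44.5% to 46.1% of macrophages and 0.795% to 3.33% of luminal cells.

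Macrophages, the most numerous myeloid class, held most Il1b transcripts. They carried 50.95%, 73.1%, 82.7% and 79.3% of all Il1b UMIs. Neutrophils carried 29.1%, 8.82%, 3.45% and 3.54%, from 233, 81, 27 and 74 cells. These neutrophils made up 17.6%, 4.95%, 1.58% and 2.90% of the myeloid cells, so neutrophils were a larger share in both Cre- libraries than in both Cre+ libraries. The other myeloid classes did not overlap between the genotypes either. Macrophages made up 75.2%, 85.0%, 90.8% and 89.4%, monocytes 3.70%, 4.71%, 5.20% and 6.23%, and dendritic cells 3.55%, 5.32%, 2.45% and 1.45%. Shares of a common total are not independent. Cell shares can depend on the sort and on dissociation, which cannot be told apart from the tumors' own content here.

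**Figure D3:**
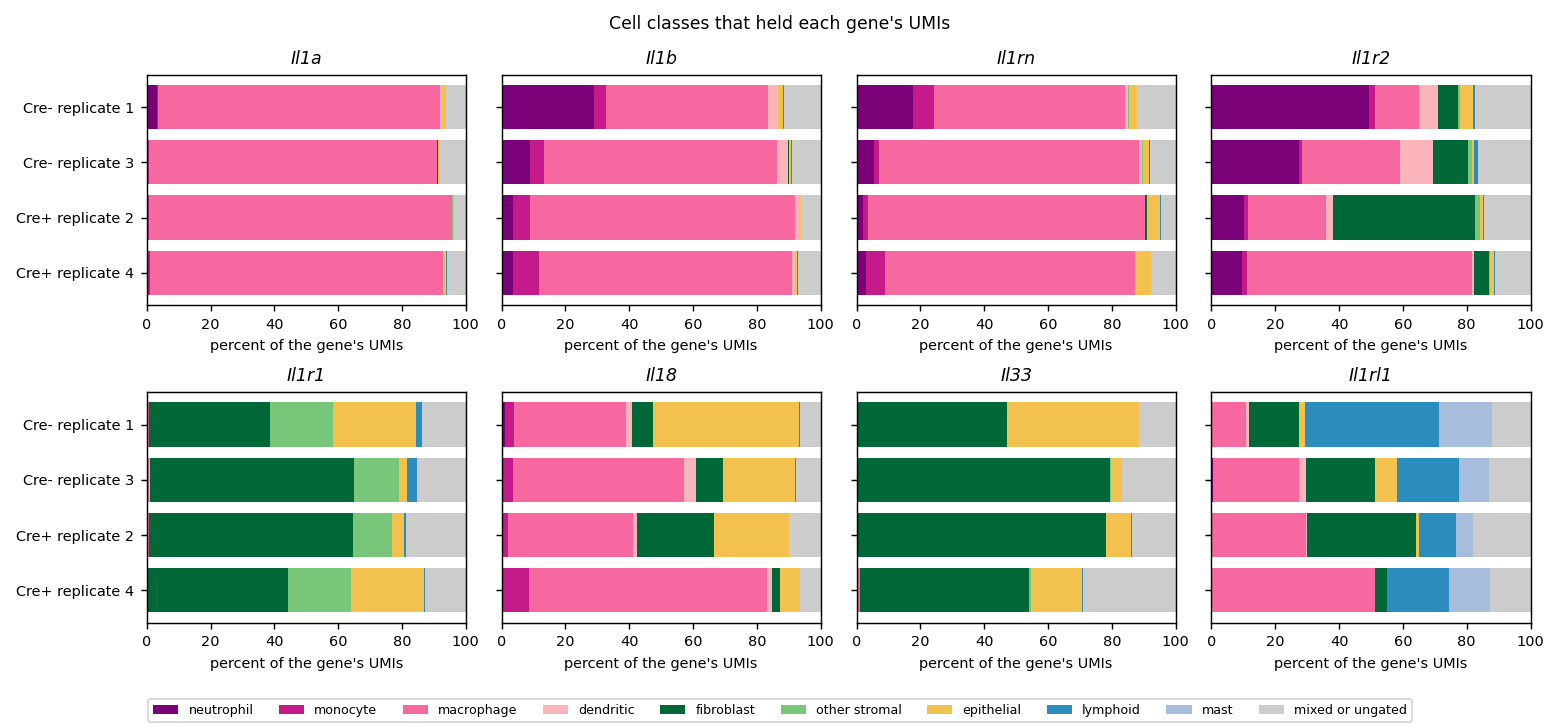
Percent of each gene's UMIs held by each cell class (stacked bars), 1 bar per library, with cells that passed gates of more than 1 lineage or of none in grey. Macrophages hold 88.6% to 94.9% of Il1a, and fibroblasts hold 46.9% to 78.8% of Il33.

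Il1a, the second agonist, which also acts in a form bound to cells, had another order. It was highest in macrophages, at 217, 283, 268 and 443 CPM. Neutrophils held 121, 126, 172 and 52.9 CPM and monocytes 18.4, 12.9, 20.1 and 98.9 CPM, so that Cre+ replicate 4 was the highest library in macrophages and monocytes and the lowest in neutrophils. The macrophage range lay above that of neutrophils, and the ranges of neutrophils and monocytes overlapped. Il1a was lower in neutrophils than in macrophages, at -1.26 ± 0.37 (log2, SE, adjusted p = 0.0046, edgeR), a call that was lost with DESeq2 at -1.08 ± 0.55 (adjusted p = 0.11). It was lower in monocytes than in macrophages, at -3.24 ± 0.39 (adjusted p = 4.2e-08, edgeR), and lower in dendritic cells, at -6.94 ± 0.55. Il1a and Il1b thus led in different myeloid cells.

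Within macrophages, Il1a and Il1b lay in overlapping cells. At 1000 UMIs per cell, Il1b was found in 80.2%, 72.8%, 92.3% and 70.6% of the macrophages with Il1a. Among macrophages without Il1a it was found in 40.7%, 40.5%, 38.7% and 39.4%. The share was higher in the cells with Il1a in each of the 4 libraries, a description over cells that share a library. In counts that were not thinned, Il1a was the more concentrated, with 59.7% to 84.0% of its UMIs in the top 10% of macrophages. It is also the gene with fewer UMIs, and the part of that was not tested.

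Il1rn, which encodes the secreted and intracellular antagonist, had the order of mean levels of Il1b across the myeloid classes, at a lower level. It diverged from Il1b in monocytes and dendritic cells. In neutrophils it was at 619, 879, 456 and 489 CPM. In macrophages it was at 135, 173, 109 and 95.6 CPM. Both Cre- libraries were above both Cre+ libraries in each of these classes, and neither difference was called by edgeR. Of all genes, 37.9% in neutrophils and 24.1% in macrophages did not overlap between the genotypes. In monocytes the spread was wider, at 414, 90.5, 49.0 and 173 CPM, below macrophages in Cre- replicate 3 and Cre+ replicate 2. Il1rn was higher in neutrophils than in macrophages by 2.22 ± 0.40 (adjusted p = 1.7e-05, edgeR) and lower in dendritic cells, at -2.92 ± 0.48 (adjusted p = 5.7e-06). These too are differences per UMI and not per cell. There were 3.76 to 7.16 Il1rn UMIs per 100 Il1b UMIs in macrophages and 2.03 to 4.04 in neutrophils. Monocytes had 1.04 to 9.05 and dendritic cells 0.248 to 1.28. The Il1b difference of dendritic cells from macrophages was -0.48 ± 0.41 and was not called (adjusted p = 0.45, edgeR).

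Il1r2, the decoy receptor, had its highest level in neutrophils. More of its UMIs lay in macrophages, 4328 against 3268 in neutrophils over the 4 libraries. In Cre- replicate 1 neutrophils held more of them, 1961 against 542. The level of Il1r2 reached 2233 and 2462 CPM in the neutrophils of Cre- replicates 1 and 3, and 1274 and 1117 CPM in those of Cre+ replicates 2 and 4. After thinning, 79.4%, 76.5%, 70.4% and 60.8% of neutrophils held it, against 1.03% to 4.47% of macrophages. The difference from macrophages was 5.42 ± 0.49 (log2, SE, adjusted p = 4.0e-12, edgeR), the largest of the 4 differences called between neutrophils and macrophages. Across all genes tested, 45.2% were called in that comparison. Dendritic cells held 329, 207, 45.8 and 30.9 CPM, above macrophages by 1.69 ± 0.44 (adjusted p = 0.0027, edgeR). That call rested on the Cre- libraries, since it was lost without Cre- replicate 1, at 1.23 ± 0.50, and without Cre- replicate 3, at 1.32 ± 0.52 (adjusted p = 0.082 and 0.077). Macrophages held 40.0, 36.6, 16.5 and 60.6 CPM. Fibroblasts held 42.9, 36.1, 47.5 and 54.8 CPM, so that a stromal and a myeloid class overlapped for the decoy receptor. The difference between all myeloid and all stromal cells was 1.29 ± 0.51 (adjusted p = 0.049, edgeR), and was lost without Cre- replicate 1 (0.86 ± 0.44), Cre- replicate 3 (1.05 ± 0.64) or Cre+ replicate 4 (1.30 ± 0.66). With all 4 libraries it was also lost among barcodes over an order-of-magnitude depth limit in Cre+ replicate 4 (1.23 ± 0.51, adjusted p = 0.057, edgeR). That limit was 10978 UMIs, near the median of 12455 UMIs of the cells kept there, and removed most neutrophils of that library. The call was further lost under the study's limits of 200 to 5000 genes and under 30000 UMIs per cell (1.10 ± 0.47, adjusted p = 0.066). It was also lost at 2000 or more UMIs (1.28 ± 0.52, adjusted p = 0.052, edgeR).

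Il18, the partner cytokine that is cleaved by caspase-1, was low and broad. Monocytes led with 49.2, 51.7, 35.7 and 63.1 CPM, above macrophages at 24.1, 30.2, 31.2 and 24.5 CPM. That difference was 0.94 ± 0.39 and did not pass the threshold (adjusted p = 0.082, edgeR). It did pass under the study's limits (0.92 ± 0.33, adjusted p = 0.041) and under a stricter gate, with more marker UMIs required and fewer of other classes allowed (0.99 ± 0.36, adjusted p = 0.045). Neutrophils against macrophages gave -1.14 ± 0.56 (adjusted p = 0.095, edgeR), which passed under the study's limits (-1.21 ± 0.50, adjusted p = 0.045). Dendritic cells overlapped with macrophages at 21.2 to 34.8 CPM. Fibroblasts held 10.8, 12.7, 29.9 and 11.4 CPM, with Cre+ replicate 2 as the high library, whereas endothelial cells held 2 UMIs in all 4 libraries together and pericytes 2 UMIs. The excess of stromal over epithelial cells, 1.36 ± 0.41 (adjusted p = 0.017, edgeR), was lost without that library, at 1.04 ± 0.43 (adjusted p = 0.078), and fell to 0.42 ± 0.43 under the stricter gate with all libraries (adjusted p = 0.42). In luminal cells Il18 was at 5.04, 4.76, 7.05 and 0.592 CPM, lowest in Cre+ replicate 4.

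Within the myeloid lineage, monocytes differed from macrophages in 2 of the 8 genes, beside 20.1% of all genes. These were Il1a, given above, and Il1rl1, at -3.89 ± 1.06, which rested on 1 monocyte UMI and was lost without Cre+ replicate 2 (-3.04 ± 1.24), without Cre- replicate 3 (-3.43 ± 1.16) and without the block (-4.04 ± 1.76). Under the stricter gate it was -1.49 ± 0.87 (adjusted p = 0.24, edgeR). Dendritic cells differed from macrophages in 3 of the 8 genes, beside 26.8% of all genes, with Il1a and Il1rn lower and Il1r2 higher.

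**Figure D4:**
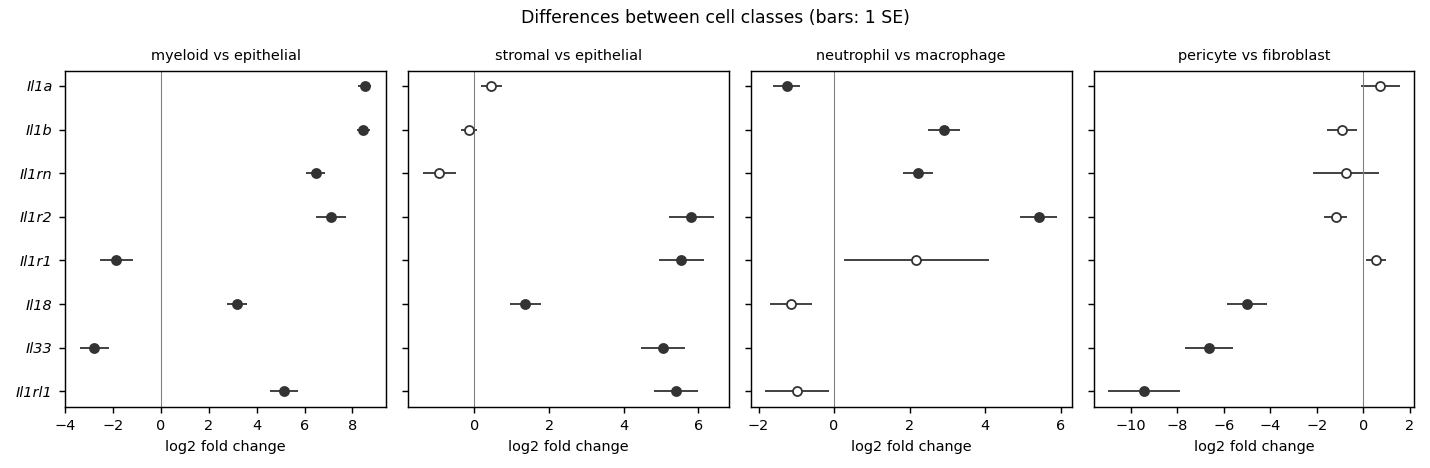
Log2 difference between 2 cell classes for each gene, with bars of 1 SE and filled points for adjusted p under 0.05 (edgeR). Il1b, Il1rn and Il1r2 lie above 0 and Il1a below 0 for neutrophils against macrophages, and Il33, Il18 and Il1rl1 lie below 0 for pericytes against fibroblasts. Il33 is not drawn for neutrophils, which held no UMI of it, and pericytes held 0 Il1rl1 UMIs, so that this fitted value is no bound.

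The signalling receptor Il1r1 was found in stromal cells. Pericytes held 173, 168, 191 and 126 CPM, and fibroblasts 101, 108, 85.1 and 91.9 CPM. Each pericyte value was above each fibroblast value, but the fitted difference was 0.53 ± 0.43 (adjusted p = 0.40, edgeR). Endothelial cells held 43.7, 24.6, 41.6 and 6.89 CPM, lower than fibroblasts, at -2.03 ± 0.47 (adjusted p = 4.2e-04, edgeR), with Cre+ replicate 4 as the low library. Macrophages held 0.295, 0.439, 0.558 and 0.0724 CPM, or 3 to 12 UMIs per library. The 3′ counts of Il1r1 were thus far lower in the cells with the most Il1b than in fibroblasts, and myeloid cells were below stromal cells, at -7.42 ± 0.70 (adjusted p = 1.3e-05, edgeR). Regulatory T cells held 24.3, 49.7, 17.3 and 1.06 CPM, again lowest in Cre+ replicate 4. The difference between myeloid and epithelial cells, -1.88 ± 0.69 (adjusted p = 0.036, edgeR), was lost without Cre- replicate 1 (-1.40 ± 0.75), without Cre+ replicate 2 (-2.27 ± 0.85) and without Cre+ replicate 4 (-1.26 ± 0.76).

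Il1r1 and Il1r2, which bind the same cytokines, lay together in some classes and apart in others. Fibroblasts, pericytes and regulatory T cells held both, with mean levels of 96.7, 165 and 23.1 CPM for Il1r1 and 45.3, 25.8 and 29.0 CPM for Il1r2. Fibroblasts held 42.3, 33.3, 55.8 and 59.6 Il1r2 UMIs per 100 Il1r1 UMIs, and pericytes 14.04, 21.8, 15.4 and 10.3. In neutrophils there were 148 to 1961 Il1r2 UMIs per library and 0 to 3 Il1r1 UMIs. Both are 3′ tags of 1 per molecule, so the ratio compares transcripts captured and not proteins.

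Il33, the nuclear alarmin, had its highest level in fibroblasts. Fibroblasts held 334, 320, 387 and 278 CPM, a narrow range. Not all Il33 UMIs lay there. In Cre- replicates 1 and 3 and Cre+ replicate 2, fibroblasts held 1953, 2967 and 5328 of them and luminal cells 1456, 125 and 508. Keratinocyte-like cells of Cre- replicate 1 held a further 266. The excess of stromal over epithelial cells was 5.05 ± 0.59 (adjusted p = 6.8e-05, edgeR). After thinning, 26.3%, 17.8%, 24.6% and 13.97% of fibroblasts held a UMI. Without thinning, the top 10% of fibroblasts held 42.2% to 62.3% of the UMIs. Endothelial cells, which express Il33 in some tissues, held 7 UMIs in all 4 libraries together, and were lower, at -9.00 ± 1.17 (adjusted p = 5.4e-08, edgeR). Pericytes were lower, at -6.64 ± 1.03 (adjusted p = 4.2e-06). Neutrophils held 0 UMIs of 1630370, which allows up to 1.84 CPM over the 4 libraries, so that the fibroblast level was at least 189-fold higher.

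Epithelial Il33 differed between libraries and lay in few cells. Luminal cells held 19.0, 1.98, 9.25 and 1.41 CPM, so that both genotypes had a high and a low library. In Cre- replicate 1, 55 of 2321 epithelial cells had at least 3 Il33 UMIs and held 94.4% of the Il33 UMIs of epithelial cells. The corresponding numbers were 4 of 2042 cells in Cre- replicate 3 with 50.0%, 27 of 2345 in Cre+ replicate 2 with 86.7%, and 22 of 2926 in Cre+ replicate 4 with 66.7%. These cells were picked by their Il33 count, so their other genes are given as a description only.

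In Cre- replicate 1 and Cre+ replicate 2 the epithelial cells with at least 3 Il33 UMIs were mostly in the luminal gate, 49 of 55 and 26 of 27. They held Esr1, the estrogen receptor gene, at 46.3 and 42.2 CPM, against 10.9 and 4.98 CPM in epithelial cells without Il33. Pgr, the progesterone receptor gene and a target of the estrogen receptor, was at 143 and 57.4 CPM against 29.1 and 7.23 CPM. In Cre+ replicate 4, 17 of the 22 cells were in the basal gate. The 22 cells together had 0 Esr1 UMIs, 6 Pgr UMIs, and Krt14, a basal keratin gene, at 772 CPM. The 2838 epithelial cells without Il33 there held only 22 Esr1 and 10 Pgr UMIs, so the 0 does not show a lower Esr1 level. Cre- replicate 3 had 4 cells with at least 3 Il33 UMIs, all in the luminal gate. They held Esr1 at 23.5 CPM (7 UMIs) against 1.41 CPM, and Pgr at 33.5 CPM (10 UMIs) against 1.03 CPM. Fibroblast genes did not move together in the cells with at least 3 Il33 UMIs. Dcn, the decorin gene and a fibroblast marker, was at 21.9, 328 and 1025 CPM in Cre- replicate 1, Cre+ replicate 2 and Cre+ replicate 4, against 11.8, 9.71 and 31.0 CPM in the epithelial cells without Il33. Col1a1, a collagen gene and another marker, was at 6.58, 9.38 and 0.933 CPM against 8.73, 17.9 and 4.13 CPM. Col3a1, Pdgfra and Lum were likewise below the cells without Il33 in these 3 libraries. Several of these values rest on few UMIs. Pdgfra had 1, 5 and 0 UMIs and Lum 1, 2 and 0, and in Cre+ replicate 4 Col1a1 and Col3a1 had 1 each. In the 4 such cells of Cre- replicate 3, Dcn (9 UMIs, 30.2 against 5.27 CPM) and Col1a1 (7 UMIs, 23.5 against 13.1 CPM) were above the cells without Il33. Col3a1, Pdgfra and Lum had 2, 0 and 0 UMIs there, too few to show a lower level. The part of fibroblast RNA was not tested. The median depth of the cells with at least 3 Il33 UMIs was 35004 to 67821.5 UMIs, higher than the 12158.5 to 22207 UMIs of epithelial cells without it, and the part of depth was not tested.

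Basal cells, named for their gate, passed the test against luminal cells in none of the 8 genes (0 called by edgeR and 0 by DESeq2, 0 at an unadjusted p under 0.05), beside 8.13% of all genes. In the basal cells the 5 basal markers summed to 1771 to 3709 CPM. The luminal keratin genes Krt8 and Krt18 summed to 3637 to 7562 CPM there and to 1800 to 4626 CPM in luminal cells. The gate thus did not single out myoepithelial cells. Under the stricter gate Il1rn was called higher in basal cells, at 1.63 ± 0.54 (adjusted p = 0.043, edgeR). So was Il1rl1, at 5.09 ± 0.73 (adjusted p = 5.7e-06, edgeR), against -2.34 ± 2.05 in the main setting, where basal cells held 0 Il1rl1 UMIs. Il33 was called higher in basal cells under the study's limits, at 1.78 ± 0.55 (adjusted p = 0.038, edgeR). Their Il33 was at 1.05, 1.92, 0.924 and 30.1 CPM, and the basal difference of 0.99 ± 0.83 turned to -2.53 ± 0.76 (adjusted p = 0.038, edgeR) without Cre+ replicate 4, whose basal cells held 162 of the 173 basal UMIs. Keratinocyte-like cells, which carry genes of stratified epithelium such as Krt6a, numbered 31 cells for Cre- replicate 1, 221 cells for Cre+ replicate 4 and under 20 for the other libraries. The cells of the 2 libraries were not alike in their markers. The 9 keratinocyte markers summed to 1196 CPM in the lower library and 8088 CPM in the higher. For the 5 basal markers the lower and higher sums were 16.4 and 3864 CPM, and for Krt8 with Krt18 they were 3166 and 12932 CPM. Keratinocyte-like cells differed from luminal cells in 4 of the 8 genes, all higher, beside 12.2% of all genes. Il1rn was higher by 3.21 ± 0.55 (adjusted p = 8.8e-05, edgeR), at 0.655 CPM (1 UMI) in Cre- replicate 1 against 22.6 CPM in Cre+ replicate 4. Il33 was higher by 2.97 ± 0.87 (adjusted p = 0.020, edgeR), at 174 CPM in the former library against 1.94 CPM in the latter. Without Cre- replicate 3 the Il33 difference was 2.79 ± 1.01 (adjusted p = 0.10), and with DESeq2 it was 3.53 ± 1.48 (adjusted p = 0.088). For both genes 1 library holds nearly all of the UMIs. Il1r1 was higher by 2.51 ± 0.61 and Il18 by 1.87 ± 0.52 (adjusted p = 0.0039 and 0.012, edgeR). The latter call was lost without the replicate block, at 1.55 ± 0.55 (adjusted p = 0.066).

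Il1rl1, which encodes the IL-33 receptor ST2, was led by small immune classes. Epithelial cells held 8, 31, 7 and 0 UMIs, of which luminal cells held 0 to 8 per library, and 3 keratinocyte-like cells of Cre- replicate 3 held 25, or 277 CPM. Mast cells were only 18 in all 4 libraries together, too few to be summed, and held 156 of 66028 UMIs as Il1rl1, or 2363 CPM. The per-library values were 2224, 4059, 1513 and 3906 CPM from 9, 2, 6 and 1 cells. Mast cells held 0 UMIs of Il1a, Il1b, Il1rn, Il1r2 and Il33. Regulatory T cells held Il1rl1 at 214, 84.7, 95.2 and 12.8 CPM, and other T cells 38.7, 26.9, 29.2 and 1.49 CPM. Fibroblasts held 11.3, 10.8, 15.3 and 1.00 CPM, and macrophages 3.32, 4.94, 8.51 and 0.965 CPM. Cre+ replicate 4 was the lowest library in each of these 4 classes.

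Endothelial cells and pericytes held 0 Il1rl1 UMIs, which allows up to 0.355 CPM and 0.829 CPM over the 4 libraries, so that the fibroblast level was at least 33.6-fold and at least 14.4-fold higher. Endothelial cells were lower than fibroblasts in 5 of the 8 genes (Il18, Il1r1, Il1r2, Il1rl1 and Il33). Of all 13487 genes tested 3459 were lower in endothelial cells, as part of the 44.5% called in either direction. Pericytes were lower than fibroblasts in 3 of the 8 (Il18, Il1rl1 and Il33), and under the study's limits also in Il1b (-1.91 ± 0.67) and Il1r2 (-2.02 ± 0.53). Of the 13487 genes 2415 were lower in pericytes, as part of the 28.8% called in either direction. Without the filter on low counts Il1r2 was called at -1.28 ± 0.44 (adjusted p = 0.037, edgeR), against -1.20 ± 0.49 with it (adjusted p = 0.061). Under the stricter gate the Il1r2 difference changed sign, at 0.18 ± 0.66 (adjusted p = 0.90, edgeR), so its direction depended on the setting. The stromal side of the family was thus divided, with the ligand Il33 in fibroblasts and the receptor Il1r1 in both fibroblasts and pericytes. Il33 and Il1rl1 had their highest levels in different classes, fibroblasts against mast and regulatory T cells.

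The genotype comparison asks whether these genes differed between Cre+ and Cre- tumors within a class. It was tested only in myeloid, epithelial and stromal cells, macrophages and neutrophils, and none of the 8 passed the test there. In myeloid cells 0 of 8 genes were called by edgeR, and 0.0% of the 13231 genes tested were (314 genes, 2.37%, had an unadjusted p under 0.05). In epithelial cells 0 of 7 genes tested were called, and 0.0% of all 16103 (395, or 2.45%, unadjusted). In stromal cells 0 of 8 and 0.0% of 13612 genes were called (656, or 4.82%, unadjusted), in macrophages 0 of 8 and 0.0% of 12967 (212, or 1.63%), and in neutrophils 0 of 4 and 0.0% of 3975 (287, or 7.22%). DESeq2 called 22, 74, 59, 12 and 6 genes in these 5 classes, and none of the 8. With 2 mice against 2, an exact two-sided permutation test cannot go below p = 0.33, and a p that misses the threshold does not show equal levels.

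**Figure D5:**
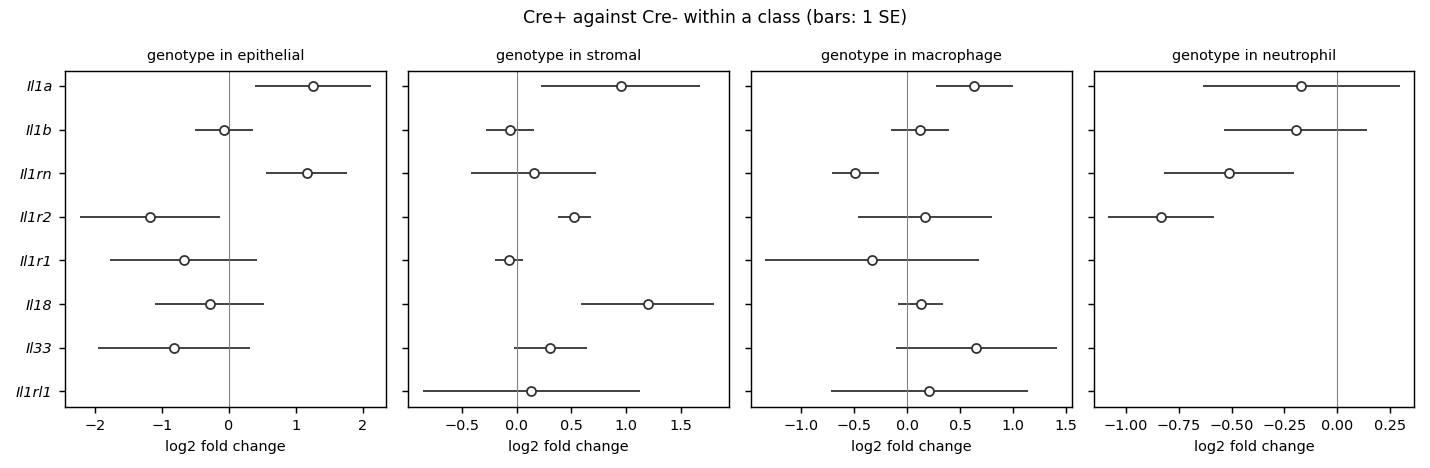
Log2 difference of Cre+ against Cre- within a class for each gene, with bars of 1 SE, where open points mark adjusted p of 0.05 or more (edgeR). None of the points is filled, and genes without a point were not tested. In neutrophils Il1r2 lies at -0.84 and Il1rn at -0.51.

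Some values did not overlap between the genotypes, counted among genes with at least 10 UMIs per library on average in a class. In neutrophils both Il1r2 and Il1rn, of 4 genes counted, were lower in both Cre+ libraries than in both Cre- libraries, when 37.9% of all genes did not overlap there. The Il1r2 means were 2347 ± 162 (SD, n = 2) and 1195 ± 111 CPM (SD, n = 2), with a fitted difference of -0.84 ± 0.25 (adjusted p = 0.65, edgeR). The Il1rn difference was -0.51 ± 0.31 (adjusted p = 0.78, edgeR). In macrophages 1 of 7 genes, Il1rn, did not overlap, beside 24.1% of all genes, at -0.49 ± 0.22 (adjusted p = 1, edgeR). In stromal cells 2 of 8, Il1r2 higher and Il1r1 lower in Cre+, did not overlap, beside 31.7% of all genes. Their differences were 0.53 ± 0.15 (adjusted p = 0.89) and -0.07 ± 0.13 (adjusted p = 1, edgeR). In epithelial cells 1 of 8, Il1rn, did not overlap, beside 28.4% of all genes, and was higher in Cre+ by 1.16 ± 0.60 (adjusted p = 1, edgeR). In Cre+ replicate 4, 163 of the 248 epithelial Il1rn UMIs lay in its 221 keratinocyte-like cells. Within luminal cells Il1rn overlapped between the genotypes, with means of 1.32 CPM in Cre- and 1.54 CPM in Cre+.

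Over all myeloid cells, Il1r2 was at 180, 74.8, 24.0 and 66.4 CPM, a difference of -1.32 ± 0.64 (adjusted p = 1, edgeR). The neutrophil share of the myeloid cells, 17.6%, 4.95%, 1.58% and 2.90% per library, had the same order of libraries. Within macrophages the difference was 0.17 ± 0.63 (adjusted p = 1, edgeR). Neutrophils held 1961, 821, 148 and 338 Il1r2 UMIs and macrophages 542, 918, 355 and 2513, so the class with more of them differed between libraries. The part of class shares in the myeloid difference was not tested. Myeloid Il1b overlapped between genotypes at 3525, 2681, 3037 and 2151 CPM, with a difference of -0.15 ± 0.28 (adjusted p = 1, edgeR).

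Calls appeared when a single Cre+ library was left out, and leaving out Cre+ replicate 2 leaves the Cre+ library of the other Cell Ranger version alone. Without Cre+ replicate 2, 3 of the 8 genes were called in macrophages, with Il1a at 0.98 ± 0.20, Il1r2 at 0.82 ± 0.12 and Il1rl1 at -1.96 ± 0.42, when 9.97% of all genes were called in that fit. In myeloid cells the 3 were Il1a (1.06 ± 0.21), Il1rn (-0.58 ± 0.17) and Il1rl1 (-2.02 ± 0.42), beside 11.8% of all genes. Without Cre+ replicate 4, 1 gene was called in each, Il1r2, at -1.19 ± 0.15 in macrophages and -2.35 ± 0.33 in myeloid cells, beside 0.36% and 2.2% of all genes. Macrophage Il1r2 thus had opposite signs according to the Cre+ library left out, since its level was 16.5 CPM in the second replicate and 60.6 CPM in the fourth, on either side of the Cre- values. A direct test of whether the genotype difference differed between myeloid and epithelial cells called 0 of the 8 genes (edgeR, 0 of 16602 genes, 421 at an unadjusted p under 0.05). Il1rn had the smallest unadjusted p of the 8 in that test, at -1.67 ± 0.43 (adjusted p = 1).

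Other genes of the pathway were counted in the same fits. Between myeloid and epithelial cells 29.9% of all genes were higher in myeloid cells, as part of the 65.9% called. Of 11 other receptors and regulators 6 were tested, and between myeloid and epithelial cells 3 were higher and 2 lower. Il18rap, a subunit of the IL-18 receptor, was higher by 5.19 ± 0.50, and Il1rap, the accessory chain that IL1R1 and ST2 need to signal, was lower, at -1.10 ± 0.20. Of 7 processing genes 6 were higher in myeloid cells, among them Nlrp3 (7.92 ± 0.22), Aim2 (7.56 ± 0.47) and Nlrc4 (5.74 ± 0.39), sensors of inflammasomes, and Gsdmd (7.01 ± 0.32), the pore through which IL-1 beta leaves the cell. Casp1 did not pass the test. Of 7 signalling genes 6 were higher, with Myd88 at 1.56 ± 0.11 and Irak4 at 1.67 ± 0.11. Of 8 known NF-kB and IL-1 target genes 7 were higher, such as Cxcl2 (6.28 ± 0.44) and Il6 (6.07 ± 0.53), and Csf3 was lower (-1.68 ± 0.63). All of these values are log2 differences with their SE.

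Neutrophils differed from macrophages in pathway genes in both directions, in a comparison where 45.2% of all genes were called and 18.2% were higher in neutrophils. In it, 3 of the 6 receptors and regulators tested were higher and 2 lower, with Il1rap higher by 4.96 ± 0.38 and Il18rap by 6.17 ± 0.47. Of the 7 processing genes 2 were higher (Casp4 and Nlrp3) and 2 lower, among them Pycard, the adaptor of inflammasomes, at -1.96 ± 0.33. Of the 7 signalling genes 4 were higher. Of the 8 target genes 4 were higher, among them Ptgs2 at 3.56 ± 0.52, and 2 were lower, Cxcl1 (-3.02 ± 0.68) and Il6 (-4.36 ± 1.24). Between stromal and epithelial cells, where 62.5% of all genes were called and 30.2% were higher in stromal cells, 5 of the 8 target genes were higher, among them Il6 (7.36 ± 0.55) and Cxcl1 (3.23 ± 0.38), and 1 lower. Of the 7 processing genes 3 were higher and 3 lower there, of the 7 signalling genes 2 higher and 1 lower, and of the 6 receptors and regulators 1 higher and 3 lower. The shares called lay on both sides of that of all genes. Il1rl2, the receptor of the related IL-36 cytokines, was higher in stromal cells by 5.22 ± 0.49. In none of the genotype comparisons was any gene of these lists called.

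For each gene, the genes with the most similar levels were named by the correlation of log2(CPM + 1) over 52 sums of 14 cell classes, which share libraries and depth. Il1b was nearest to Nfam1 (r = 0.987), an activating receptor adaptor of myeloid cells, and Il1rn to Cd300ld (r = 0.948). Il1a and Il1rn shared Clec5a, a myeloid receptor, among their 3 nearest genes (r = 0.906 and 0.945). Il1r2 was nearest to Cd80 (r = 0.877), a costimulatory ligand, and Il18 to Rab7b (r = 0.836). Among stromal genes, Il1r1 was nearest to Map6 (r = 0.917) and Il33 to Scara3 (r = 0.900). Il1rl1 was nearest to Ccr4 (r = 0.781), a chemokine receptor of regulatory T cells. These are descriptions over classes of a few mice.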

How the data were processed

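Cells from 4 mammary tumors went through 3′ droplet sequencing (10x Genomics, v3). The matrices deposited by the authors hold raw UMI counts from Cell Ranger, without normalization (per the file headers, version 6.1.2 for replicates 1 to 3, which were filtered to called cells, and version 4 for Cre+ replicate 4, which holds all barcodes). The submitters' processing notes name hg38, but the genes carry mouse Ensembl identifiers, and the mouse build is not given in the sources used here. Library totals were 112729231 to 157662955 UMIs.

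Cells were kept at 1000 or more UMIs and at most 20% mitochondrial UMIs. A class needed at least 3 of its markers and 5 marker UMIs per 10000 UMIs, or 2 markers and 2 UMIs per 10000 for dendritic, T, NK and B cells. The markers were fixed, but these limits were set after the data were seen. Cells that passed the gates of more than 1 lineage (1908 of 23572, doublets among them) and of none (1424) were left out, and no doublet caller was run. Counts were summed per library and class of at least 20 cells. They were tested with edgeR 4.0.16 (quasi-likelihood test, TMM, filterByExpr, in R 4.3.3), with Benjamini-Hochberg adjustment over all genes, and with DESeq2 1.42.0 as an alternative. The classes of 1 mouse were blocked by library. Deviations of same-library sums from the class means correlated at r = 0.146 to 0.353 over 12308 genes. Levels are CPM of summed UMIs, where 3′ counts need no division by length. Intervals cover counting error only. Limits for 0 use 3 counts.

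The 8 genes, the marker lists and the pathway lists were chosen with earlier results of these data known. The text names the 8 genes in every comparison, called genes of the pathway lists, and the nearest genes by Pearson correlation.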

Additional observations from a re-analysis of the deposited data

Results flagged for a closer look

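In some pairs of cell classes both Cre+ libraries lay above both Cre- libraries in one class and below them in the other. The differences between the classes were not tested, and no genotype difference of the 8 genes passed the test in the classes tested (Il1r2 in neutrophils was at -0.84, adjusted p = 0.65, edgeR). Of all genes, 37.9% did not overlap between the genotypes in neutrophils, 29.4% in monocytes, 40.1% in dendritic cells and 31.6% in fibroblasts. For Il1r2 the Cre+ libraries were above the Cre- libraries in fibroblasts (log2 ratio of the means 0.37) and below them in dendritic cells (-2.81), monocytes (-1.73) and neutrophils (-0.97). The differences between the classes were -3.18 for dendritic cells against fibroblasts, 2.10 for fibroblasts against monocytes and 1.35 for fibroblasts against neutrophils. For Il1b the Cre+ libraries were above in monocytes (0.10) and below in dendritic cells (-0.91) and fibroblasts (-0.44), and the differences were -1.01 for dendritic cells against monocytes and -0.54 for fibroblasts against monocytes. Fibroblasts held 30 to 108 Il1b UMIs per library.

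The droplets with up to 100 UMIs of Cre+ replicate 4, which enter no comparison, held UMIs of all 8 genes. Their levels were 953 CPM for Il1b, 187 CPM for Il1a, 50.0 CPM for Il1rn, 43.6 CPM for Il1r2, 11.8 CPM for Il18, 6.42 CPM for Il33, 1.61 CPM for Il1r1 and 1.20 CPM for Il1rl1. In the same library the luminal cells held Il1b at 13.6 CPM and the macrophages at 1982 CPM.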

How the results depend on the processing

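No paired analysis was possible because the genotypes share no replicate numbers (1 and 3 against 2 and 4). Between cell classes of the same mouse the replicate block changed 1 count of calls by over 1.5 times, since monocytes differed from macrophages in 2 genes with it and in 1 without it. Leaving out 1 library gave 7 to 8 calls for myeloid against epithelial cells, 4 to 5 for stromal against epithelial, 6 to 7 for myeloid against stromal, 1 to 2 for monocytes, 2 to 3 for dendritic cells and 4 for neutrophils against macrophages, 5 for endothelial cells and 3 for pericytes against fibroblasts, 0 to 1 for basal and 3 to 4 for keratinocyte-like against luminal cells. It gave 0 to 3 for the genotype in myeloid cells and in macrophages and 0 in the other classes. Where it left a genotype with 1 library, that library was assumed to vary like the others. Under the study's depth limits 5 genes were called for pericytes and 1 for basal cells, and under the stricter gate 2 for basal cells. The basal Il33 difference (0.99) was -2.53 without Cre+ replicate 4 and 1.79 without Cre- replicate 1. That of Il1rl1, fitted at -2.34 on 0 basal UMIs, turned to 5.09 under the stricter gate. Without Cre+ replicate 2 the genotype difference of Il1rl1 turned to -2.02 in myeloid cells and -1.96 in macrophages, and that of Il1r2 in macrophages was 0.82. Without Cre+ replicate 4 they were 0.98, 1.03 and -1.19. The cause was not tested. Keratinocyte-like cells gave no value under the stricter gate, the study's limits, or without Cre- replicate 1 or Cre+ replicate 4. Shares of cells without thinning were 63.4% for Il1b and 38.1% for Il1a in macrophages, 66.8% for Il33 in fibroblasts and 80.8% for Il1r1 in pericytes, against 45.3%, 14.3%, 20.7% and 15.6% with it. The mean levels in the leading classes moved by less than 1 SD under the stricter gate, the study's limits and the order-of-magnitude limit. The order-of-magnitude limit left 3 neutrophils in Cre+ replicate 4, too few to be summed. For Il1b, Il1rn and Il1r2, led by neutrophils, that check therefore only left out this library. The stricter gate left 14 pericytes in Cre+ replicate 4, also too few, so its Il1r1 mean in pericytes lacks that library.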
